A study of Mus musculus with 4 samples.

Results

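The interleukin-6 family of cytokines was examined in mouse primary myoblasts, the dividing muscle precursor cells, as the 10 genes Il6, Lif, Osm, Clcf1, Il11, Il6ra, Il6st, Lifr, Osmr and Socs3. They were picked by name, and all 10 were found among the 24445 genes of the expression table. Muscle stem cells (satellite cells) had been sorted from hindlimb muscle of C57BL/6 mice as CD45-, CD11b-, CD31-, Sca1-, CD34+ and integrin a7+ cells and grown on collagen in proliferation medium for at least 3 days. The WT group had an intact Tet2 gene. The Tet2 KO group came from animals in which an exon of Tet2, an enzyme that oxidises methylated cytosine in DNA, had been deleted by homologous recombination in the whole animal, so any other cell type in these cultures carried the deletion too. The labels give no treatment beyond culture. Per the study's methods, young adult male mice were used unless stated otherwise, and the number of animals behind a library was not given in the sources used here. Each group had 2 libraries of total RNA. Expression was at hand as 1 FPKM value (sequenced fragments scaled to transcript length and to library size) per gene and group, read here as the authors' value for both libraries together. No spread between libraries could therefore be set beside any value, no test was run, and whether a difference exceeds the spread between replicates cannot be told.

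The cytokines encoded by Il6, Lif, Osm, Clcf1 and Il11 signal through gp130, the receptor chain encoded by Il6st, which all of them share. Interleukin-6 first binds its own receptor chain (Il6ra), leukemia inhibitory factor pairs gp130 with the chain encoded by Lifr, and mouse oncostatin M pairs it mainly with the chain encoded by Osmr. The occupied receptors activate JAK kinases and the transcription factor STAT3, and STAT3 induces Socs3, whose product binds gp130 and the kinases and damps the signal. In muscle, interleukin-6 and leukemia inhibitory factor are known to act on satellite cells and myoblasts after injury, and both are also made by leukocytes and fibroblasts.

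The promoters of Il6, Lif and Socs3 are shown because these are the 2 ligand genes past the 1.5-fold difference used here and the feedback gene of the pathway. Promoter sequences were found for 8 of the 10 members in a RefSeq table of build GRCm38.p6, each with 250 bases before and 50 bases after an annotated start. Osm and Clcf1 had no entry. Capitals mark matches, on either strand, to 4 motifs, namely TTCNNNGAA (STAT factors), TGANTCA (AP-1), TTNNGNAA (C/EBP factors) and the NF-kB consensus, a motif of 10 letters; no marked matches overlapped. The Il6 promoter lies on the plus strand at chr5:30012864-30013163, the Lif promoter on the plus strand at chr11:4257318-4257617 and the Socs3 promoter on the minus strand at chr11:117969317-117969616.
Il6: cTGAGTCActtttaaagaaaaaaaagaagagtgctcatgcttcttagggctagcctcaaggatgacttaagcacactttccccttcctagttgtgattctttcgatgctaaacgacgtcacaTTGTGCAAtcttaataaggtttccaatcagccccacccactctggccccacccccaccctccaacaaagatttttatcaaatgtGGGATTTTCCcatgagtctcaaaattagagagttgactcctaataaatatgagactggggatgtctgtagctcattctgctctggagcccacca
Lif: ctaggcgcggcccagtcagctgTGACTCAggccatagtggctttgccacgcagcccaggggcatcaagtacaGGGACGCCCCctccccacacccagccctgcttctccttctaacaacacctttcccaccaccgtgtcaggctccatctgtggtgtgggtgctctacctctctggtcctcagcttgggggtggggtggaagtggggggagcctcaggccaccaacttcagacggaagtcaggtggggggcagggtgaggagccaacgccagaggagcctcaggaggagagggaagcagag
Socs3: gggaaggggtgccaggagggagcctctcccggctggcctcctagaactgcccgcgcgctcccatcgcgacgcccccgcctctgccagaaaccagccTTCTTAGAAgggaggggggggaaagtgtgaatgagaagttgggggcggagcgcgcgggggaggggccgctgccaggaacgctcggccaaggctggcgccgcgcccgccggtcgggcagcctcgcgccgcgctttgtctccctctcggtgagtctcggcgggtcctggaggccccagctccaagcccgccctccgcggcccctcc

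The Il6 promoter held an NF-kB match (GGGATTTTCC) whose first base lies 44 bases before the start, a C/EBP match 128 bases before it and an AP-1 match 249 bases before it. The Lif promoter held an AP-1 match 228 bases and an NF-kB match 178 bases before the start. The Socs3 promoter held 1 STAT match (TTCTTAGAA) 154 bases before the start, the only STAT match in the 10 promoters of these 8 members. Among all 32851 promoters of the same length in that table, 8.3% held the STAT motif, 8.46% the NF-kB motif, 7.81% the AP-1 motif and 40.7% the C/EBP motif. The E box CANNTG, the motif bound by myogenic factors such as MyoD, was in 72.3% of all promoters and had 3 matches in the Lif promoter, 1 in that of Il6 and 0 in that of Socs3. A match is a run of letters and not a measured binding site.

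CpG dinucleotides, the sites that Tet2 acts on, were fewer in the ligand promoters than in most receptor promoters and that of Socs3. The Il6 promoter held 3 CpG and the Lif promoter 7, against a median of 7 over all promoters with quartiles of 3 and 20. Il11, with 2 annotated starts, had 1 and 13 CpG. Socs3 had 31, Il6st 33, Il6ra 25 and Osmr 22. Lifr, also with 2 starts, had 53 at one and 4 at the other. No methylation value was used here, so these counts describe the sequence alone.

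The summed ligand transcripts were higher in Tet2 KO, while the summed receptor transcripts, of which Il6st is the largest part, were nearly equal. The 5 ligands summed to 59.6 FPKM in Tet2 KO against 35.4 FPKM in WT, a ratio of 1.68. The ligand sums here and below include Clcf1, whose value is uncertain because other genes share its locus. The 4 receptor chains summed to 63.9 FPKM in Tet2 KO against 62.8 FPKM in WT, a ratio of 1.02. All 5 ligands had the higher value in Tet2 KO, as did 3 of the 4 receptor chains and Socs3. FPKM is scaled to transcript length, so levels of different genes can be set side by side.

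**Figure D1:**
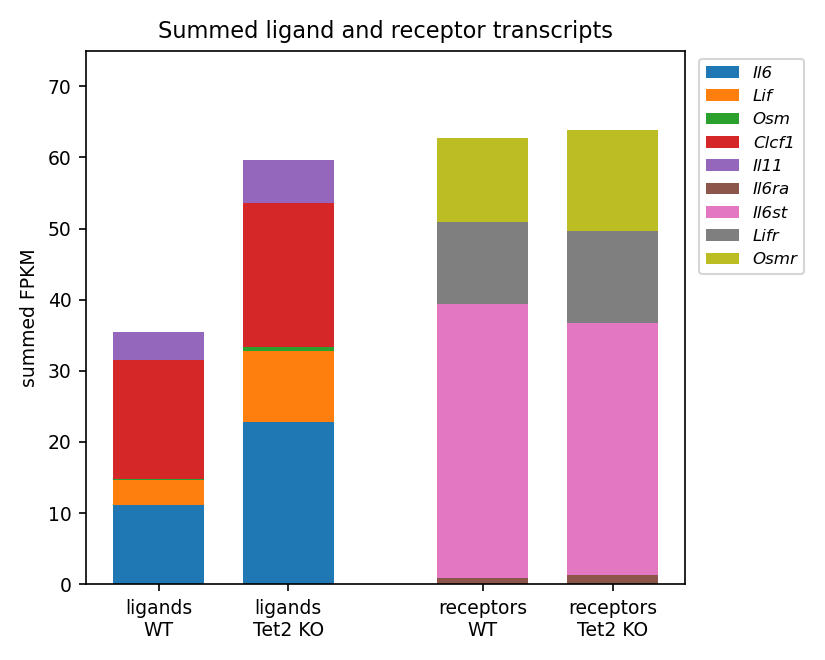
Stacked bars of FPKM for the 5 ligand genes (left pair) and the 4 receptor genes (right pair) in WT and Tet2 KO, 1 combined value per gene and group and no error bars. The ligand bar reaches 59.6 FPKM in Tet2 KO against 35.4 FPKM in WT, and the receptor bars reach 63.9 and 62.8 FPKM.

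Il6 encodes interleukin-6, the founding cytokine of the family. It lies on chromosome 5 from 30339654 to 30346515 (plus strand) of mm9, with 5 exons in its annotated coding transcript. Its level was 22.8 FPKM in Tet2 KO against 11.1 FPKM in WT, a ratio of 2.06. On the log2((Tet2 KO FPKM + 1) / (WT FPKM + 1)) scale, which is used for all differences here and understates the change of low genes, the difference was 0.98. It ranked 247 from the top among the 11692 genes that averaged 1 FPKM or more.

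Lif encodes leukemia inhibitory factor and lies on chromosome 11 from 4157571 to 4172517 (plus strand), with 4 exons in its longest coding transcript. It had 9.93 FPKM in Tet2 KO against 3.55 FPKM in WT, a ratio of 2.80 and a difference of 1.27. This was the largest difference among the 10 members, at rank 152 of 11692. Without Il6 and Lif, the remaining 3 ligands summed to 26.8 FPKM in Tet2 KO against 20.8 FPKM in WT, a ratio of 1.29.

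A difference was counted as past the fold when it reached 1.5-fold on the scale above (0.58 in log2). Among the 9 members that averaged 1 FPKM or more, Il6 and Lif were past it, both higher in Tet2 KO, and 0 members were past it in the other direction. Of all 11692 genes at that level, 3.72% were past it as higher in Tet2 KO and 2.89% as lower. Low genes pass more often: the share higher in Tet2 KO was 8.98% at a mean FPKM of 1 to 5, 2.78% at 5 to 20, where Il6 and Lif lie, and 1.36% at 20 or more. At 2-fold, where 2.08% of genes were higher in Tet2 KO, Lif alone passed, and Il6 at 0.98 lay just short. The median difference was 0.33 over these 9 members and 0.36 over all 10, beside -0.0044 over all 11692 genes. Il6ra reached the level filter through its Tet2 KO value alone.

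**Figure D2:**
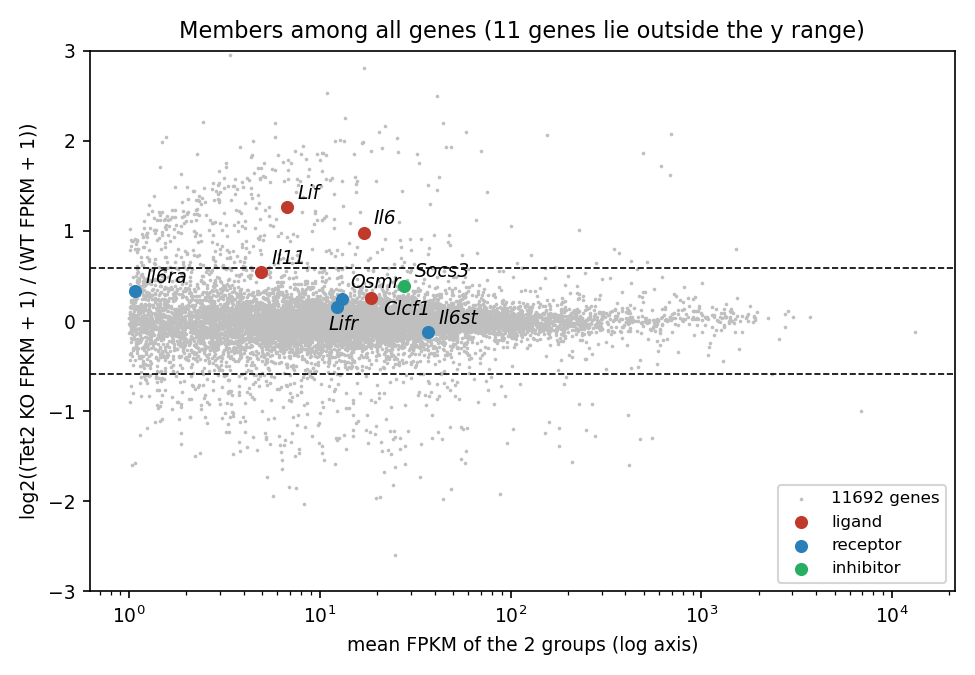
Difference of each gene, as log2((Tet2 KO FPKM + 1) / (WT FPKM + 1)), against its mean FPKM on a log axis for the 11692 genes that averaged 1 FPKM or more (grey), with 9 members coloured by role and dashed lines at 1.5-fold in both directions. Lif at 1.27 and Il6 at 0.98 lie above the upper line, Il11 at 0.55 lies just under it, and the receptors range from -0.12 to 0.33.

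Il11 encodes interleukin-11, a cytokine of stromal cells. It lies on chromosome 7 from 4723980 to 4734459 (minus strand) and had 6.05 FPKM in Tet2 KO against 3.83 FPKM in WT, a ratio of 1.58. Its difference of 0.55 fell short of the fold only through the added 1. Clcf1 encodes cardiotrophin-like cytokine factor 1. It lies on chromosome 19 from 4214238 to 4233634 and had 20.2 FPKM in Tet2 KO against 16.9 FPKM in WT, a ratio of 1.20. Pold4, a DNA polymerase subunit gene, and the predicted gene Gm45928 have the same locus in the table. How reads there were assigned was not tested, and the Clcf1 value is uncertain for that reason. Pold4 had 31.7 FPKM in Tet2 KO against 28.5 FPKM in WT.

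Osm encodes oncostatin M, a cytokine made mainly by myeloid cells. It lies on chromosome 11 from 4136788 to 4141029 (plus strand) and was the lowest member, with 0.533 FPKM in Tet2 KO against 0.110 FPKM in WT. The ratio was 4.85, the largest of the 10, yet the difference on the scale with an added 1 was 0.47, and Osm did not reach the mean FPKM of 1. The smallest values in the table cluster in part near multiples of a single fragment. On a score where 1 is exact spacing, the best-fitting step reached 0.52 in Tet2 KO and 0.54 in WT. From that step, the Osm values are estimated at about 61 fragments in Tet2 KO and 13 in WT. Counting error alone then allows a ratio between 2.59 and 9.45 (exact 95% interval), and the spread between libraries comes on top of it. For Il6ra the same estimate gave about 223 and 144 fragments and a ratio between 1.27 and 1.95. For Il6 it gave about 1254 and 617 fragments and a ratio between 1.87 and 2.28.

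The order of the ligands by level was not the same in the groups. In WT, Clcf1 was highest, followed by Il6, Il11, Lif and Osm. In Tet2 KO, Il6 was highest, followed by Clcf1, Lif, Il11 and Osm. Il6 and Clcf1 thus changed places, as did Lif and Il11. Il6 stood at 0.656 times the level of Clcf1 in WT and at 1.13 times in Tet2 KO. Lif stood at 0.926 times the level of Il11 in WT and at 1.64 times in Tet2 KO. Il6 made up 31.3% of the summed ligand FPKM in WT and 38.3% in Tet2 KO, and Clcf1 47.6% and 34.0%. Whether neighbours in these orders differ beyond the spread between libraries cannot be told from 1 value per group. Clcf1 shares its locus with Pold4 and Gm45928, so its rank, its ratio to Il6 and all the ligand shares are uncertain for that reason too.

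**Figure D3:**
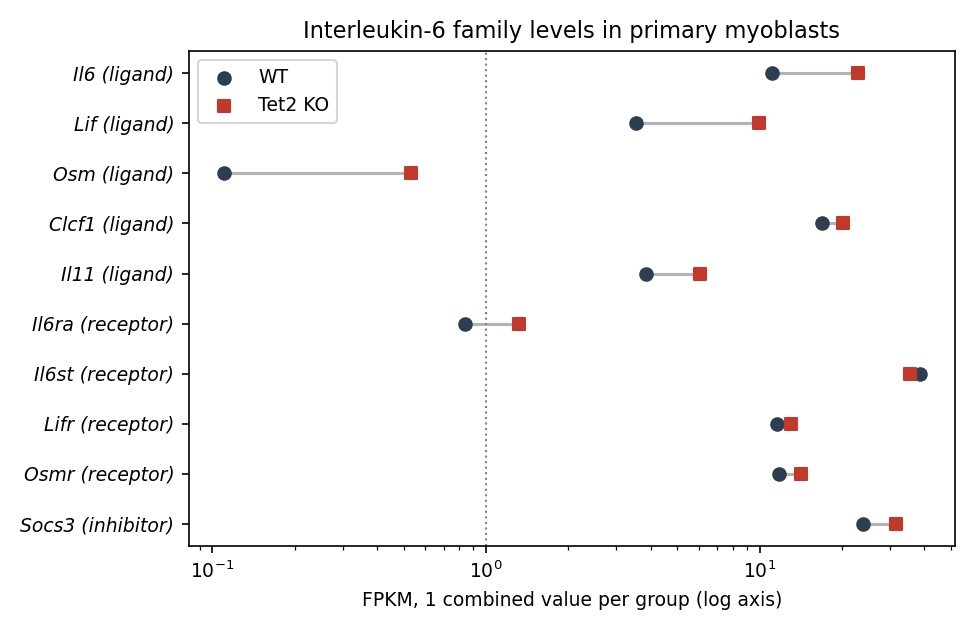
FPKM of the 10 members on a log axis, with a dot for WT and a square for Tet2 KO, 1 combined value per group, joined by a grey line; the dotted line marks 1 FPKM. The lines of Osm, Lif and Il6 are the longest, and Il6st is the only gene whose WT value lies to the right of its Tet2 KO value.

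Among the receptor chains, Il6st, the gene of gp130, was the most abundant of the 10 members in both groups. It lies on chromosome 13 from 113254278 to 113297068 and had 35.4 FPKM in Tet2 KO against 38.5 FPKM in WT, a difference of -0.12 and the only member lower in Tet2 KO. Osmr and Lifr lie 255 kb apart on chromosome 15. Osmr, from 6763577 to 6824313 (minus strand), had 14.2 FPKM in Tet2 KO against 11.8 FPKM in WT. Lifr, from 7079572 to 7147489 (plus strand), had 13.0 FPKM in Tet2 KO against 11.6 FPKM in WT. The differences of 0.25 and 0.15 were well inside the fold.

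Il6ra, which gives cells their specific binding of interleukin-6, was low in both groups. It lies on chromosome 3 from 89673246 to 89717118 and had 1.32 FPKM in Tet2 KO against 0.841 FPKM in WT, a ratio of 1.57 and a difference of 0.33. The ratio was close to the 1.58 of Il11, and Il6ra too fell short of the fold only through the added 1. Il6st therefore stood at 26.8 times the level of Il6ra in Tet2 KO and at 45.8 times in WT. Il6 itself stood at 17.3 times the level of its receptor chain in Tet2 KO and at 13.2 times in WT. The order of the receptor genes, Il6st, Osmr, Lifr and Il6ra, was the same in both groups.

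Socs3, the feedback inhibitor, lies on chromosome 11 from 117827401 to 117830680 (minus strand). It had 31.6 FPKM in Tet2 KO against 23.8 FPKM in WT, a ratio of 1.33 and a difference of 0.39 at rank 662 of 11692. This is smaller than the fold used here.

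Osm and Lif are neighbours on chromosome 11, with 16.5 kb between their loci and 0 genes of the table lying between them. Both had the higher value in Tet2 KO. Of the 11 other genes within 200 kb of the pair, 7 reached a mean of 1 FPKM, and 0 of these were past the fold in either direction. Their differences ran from -0.32 for Sec14l2 to 0.28 for Gatsl3, the gene next to Osm on the other side. Around Osmr and Lifr, 1 of 3 other genes reached a mean of 1 FPKM, with a difference of -0.03.

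**Figure D4:**
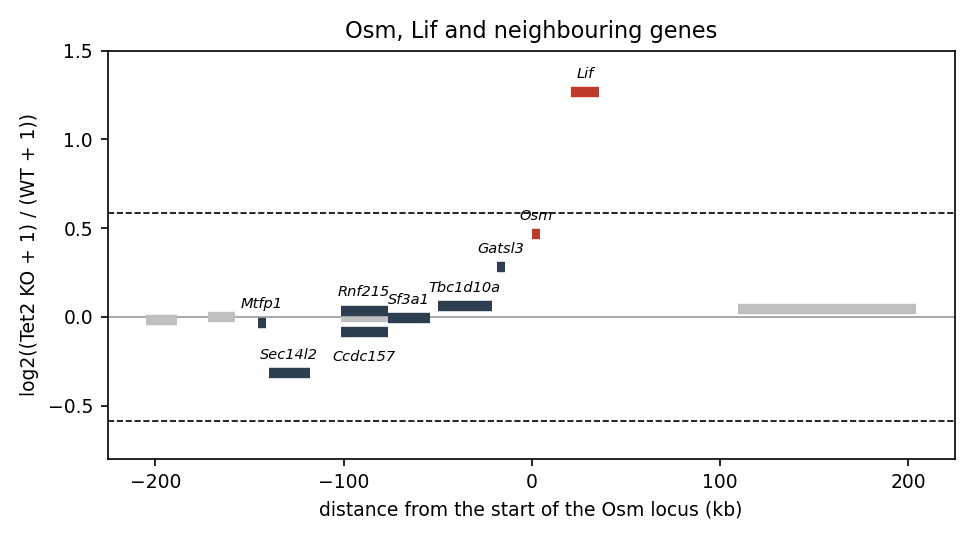
Difference of each gene, as log2((Tet2 KO FPKM + 1) / (WT FPKM + 1)), at its distance in kb from the start of the Osm locus, with members in red, other genes that averaged 1 FPKM or more in dark blue, lower genes in grey and dashed lines at 1.5-fold. Lif at 1.27 and Osm at 0.47 stand above the 7 dark blue genes, which run from -0.32 to 0.28.

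The other genes of the pathway were counted in lists taken from textbook knowledge. Of 7 further ligand genes of the family, 3 reached a mean of 1 FPKM and 0 were past the fold. Of 5 further receptor genes, Il11ra1, the binding chain for interleukin-11, was the only one at that level, with 4.42 FPKM in Tet2 KO against 3.76 FPKM in WT.

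Genes that carry the signal inside the cell had nearly equal values. Of the 11 kinases, STAT factors and adaptors, 4 were higher and 7 lower in Tet2 KO, 0 were past the fold, and the median difference was -0.04. Of 11 inhibitors other than Socs3, 10 reached a mean of 1 FPKM, 6 of them higher and 4 lower, and 0 were past the fold, with a median of 0.06. Ptpn2, a phosphatase gene and the most abundant of these, had 44.8 FPKM in Tet2 KO against 41.6 FPKM in WT. The protease genes Adam10 and Adam17, whose products can release the interleukin-6 receptor chain from the cell surface, had differences of 0.20 and 0.11.

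Genes known as STAT3 targets and as regulators of Il6 were mostly higher by less than the fold. Of all 11692 genes, 5703 were higher in Tet2 KO. Of 13 STAT3 targets, 12 were higher and 1 lower, with a median of 0.17. Beside 3.72% of all 11692 genes, 2 were past the fold as higher. These were Icam1, an adhesion molecule gene, with 2.78 FPKM in Tet2 KO against 1.40 FPKM in WT, and Pim1, a kinase gene, with 14.7 and 9.48 FPKM in the same order. Timp1, a protease inhibitor gene and the most abundant of the list, had 385 FPKM in Tet2 KO against 277 FPKM in WT. Of 9 regulators of Il6, 6 were higher and 3 lower, 0 were past the fold, and the median was 0.26. The list mixes genes that raise Il6 and genes that limit it, so this median does not measure induction of Il6. The 3 lower genes were Rela, Nfkb1 and Arid5a, with differences of -0.15, -0.01 and -0.02. Nfkbia, the gene of an NF-kB inhibitor and the most abundant of them, had 64.8 FPKM in Tet2 KO against 47.7 FPKM in WT. Genes of acute phase proteins, which interleukin-6 induces in liver, had 3 of 10 members averaging 1 FPKM or more. All 3 were past the fold and higher in Tet2 KO, as were 3.72% of all 11692 genes. Over all 10, 7 were not lower in Tet2 KO, and the fibrinogen genes Fga, Fgb and Fgg were lower, at 0.014 FPKM or less in both groups. With the Tet2 KO value first, Lcn2 had 16.9 and 3.91 FPKM, Saa3 15.2 and 6.24 FPKM, and Hp 5.89 and 1.49 FPKM. The ratios of these genes were 4.31, 2.44 and 3.94, inside the range of 2.11 to 5.15 of the leukocyte markers below. Which cells these transcripts came from was not tested.

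Leukocyte markers also had higher values in Tet2 KO. Of 18 leukocyte markers, 17 reached a mean of 1 FPKM. Adgre1, with 3.67 FPKM in Tet2 KO against 0.712 FPKM in WT, reached it through its Tet2 KO value alone. All 17 were past the fold and higher in Tet2 KO, as were 3.72% of all 11692 genes, and the median of the 17 was 1.60. Their summed level was 2232 FPKM in Tet2 KO against 629 FPKM in WT, a ratio of 3.55, and 0 of the 18 were at 0 in either group. The highest was S100a8, with 941 FPKM in Tet2 KO and 285 in WT, an order kept for the pairs that follow. The genes of the 2 sorted-out leukocyte antigens were present, Ptprc (CD45) at 5.67 and 1.36 FPKM and Itgam (CD11b) at 10.1 and 2.09 FPKM. The ratios of the 18 markers ran from 2.11 (Cd68) to 5.15 (Adgre1) with a median of 3.88. Of the 18, 1 had a larger ratio than Osm at 4.85, 14 a larger ratio than Lif at 2.80 and all 18 a larger ratio than Il6 at 2.06. The part of leukocyte RNA in the family's differences was not tested. In bulk RNA, a larger number of cells of a type and more RNA per cell cannot be told apart.

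Fibroblast markers, cells that also make family ligands, summed to 309 FPKM in Tet2 KO against 296 FPKM in WT over 8 genes, nearly all of it Ly6a (Sca1) at 288 and 278 FPKM, an antigen that the sort had selected against. Pdgfra, a defining fibroblast marker, had 1.91 and 1.06 FPKM. Of the 6 fibroblast markers averaging 1 FPKM or more, 5 were higher and 1 lower in Tet2 KO. Beside 3.72% of all 11692 genes, 1 was past the fold as higher, Dcn, with 7.04 FPKM in Tet2 KO against 3.15 FPKM in WT. The lower one was Postn, with 6.05 FPKM in Tet2 KO against 8.95 FPKM in WT. Their part was not tested either. The 7 endothelial markers summed to 4.06 and 4.48 FPKM, with Pecam1 (CD31) at 1.48 and 1.63 FPKM and Cdh5 at 0.334 and 0.481 FPKM, and 0 of them were past the fold. Myoblast markers were present, as the label states, with Myod1 at 313 FPKM in Tet2 KO against 336 FPKM in WT and Cdh15 at 84.3 and 97.4 FPKM. All 7 myoblast markers averaged 1 FPKM or more and were lower in Tet2 KO, with a median of -0.10. Beside 2.89% of all 11692 genes, 1 of the 7 was past the fold as lower, the differentiation factor gene Myog, at 268 and 554 FPKM. The deleted gene itself, Tet2, had 5.79 FPKM in Tet2 KO against 6.64 FPKM in WT, a value over all exons that does not show the deleted one and so does not check the labels.

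**Figure D5:**
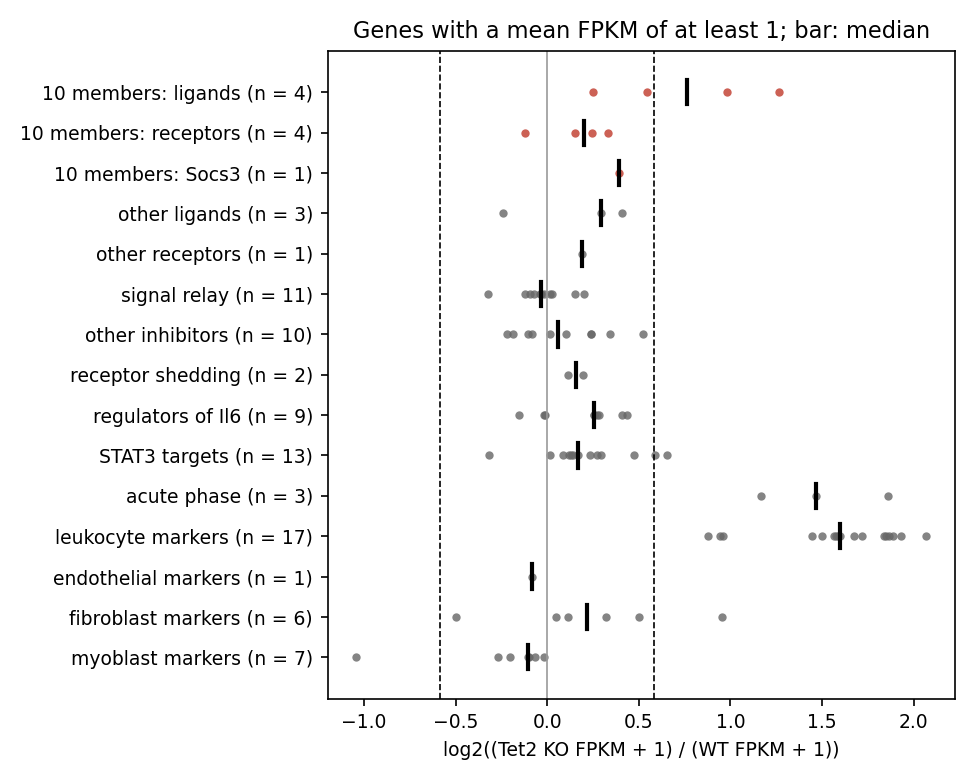
Differences, as log2((Tet2 KO FPKM + 1) / (WT FPKM + 1)), of the genes that averaged 1 FPKM or more in each list, with the family members in red, black bars at the list medians and dashed lines at 1.5-fold. The 17 leukocyte markers lie between 0.88 and 2.07, the 3 acute phase genes between 1.17 and 1.86, and the relay genes between -0.32 and 0.20.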

How the data were processed

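RNA was sequenced by the authors with a TruSeq kit. Per the study's methods and the submitters' processing notes, read pairs were aligned to mm9 with TopHat 2.0.13, and Cuffdiff 2.2.1 estimated expression and compared the groups. The gene annotation was not given in the sources used here. The deposited table held 1 FPKM value per gene and group, estimated by the authors. Its columns of the authors' own comparison (test status, fold change, statistic, p-values and significance call) were not used.

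Differences were computed as log2 with a pseudocount of 1, over genes that averaged 1 FPKM or more; the computation was tested on simulated data. The 10 members and all lists were chosen with earlier results of these data known. All members, each pathway list's genes past the fold and its most abundant gene, and each marker list's defining and most abundant genes were named. Fragment numbers came from the spacing of low FPKM values times annotated length (GENCODE vM1) in single-transcript genes of over 1000 bases. A single fragment was worth 0.0198 FPKM kb in Tet2 KO and 0.0195 in WT, or about 50500000 and 51300000 fragments per group, and depth per library is unknown. Intervals cover counting error only. Loci are those of the table, with 1 added to starts. Promoters came from RefSeq. The software was matplotlib 3.10.9, scipy 1.17.1, pandas 2.3.3, numpy 2.4.6 and Python 3.11.15.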

Additional observations from a re-analysis of the deposited data

How the results depend on the processing

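No paired analysis was possible because the table holds 1 combined value per group, and leaving out a library was not run for the same reason. With a pseudocount of 0.1 or none, 4 members were past the fold as higher in Tet2 KO (Il11 and Il6ra joined Il6 and Lif), and at 2-fold 1 was. In TPM 3 were, with Il11 at a difference of 0.59. Of all genes, 4.94% were past the fold as higher in Tet2 KO without a pseudocount, 4.82% with a pseudocount of 0.1 and 4.13% in TPM. None of the 10 members changed direction under either pseudocount, TPM or median centring, and 0 were past the fold as lower under any alternative. The Osm difference was 0.70 in TPM, 1.59 with a pseudocount of 0.1 and 2.28 with none, and the Il6ra difference was 0.59 and 0.65 with these pseudocounts.

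Without the filter on low values, 1 further ligand gene (Ebi3) passed, and the medians became 0.0033 for the further receptors, 0.10 for the inhibitors, 0.35 for the acute phase genes and 0.012 for the endothelial markers. The endothelial median, which rests on Pecam1 alone, was -0.13 and -0.14 with a pseudocount of 0.1 and none. At a mean of 5 FPKM or more, 1 STAT3 target passed and the fibroblast median was 0.0500. At 2-fold, 0 STAT3 targets and 0 fibroblast markers passed, and 2 fibroblast markers passed at 1.5-fold in TPM and under both pseudocounts. The remaining 241 counts and medians under alternatives, and 35 differences of single members, were equal to those reported or stayed within 1.5 times of them, medians and differences with the same sign. Most of the 241 were counts of 0 that stayed 0, which says little about stability. The count of 3 members in TPM is among the 241. Depth per library is unknown, and Osm rests on the fewest fragments of the 10 members.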

Other observations

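The ligand genes of the family outside the 10 members that are given here were named after their values were seen. Il27 and Ebi3, which encode the chains of interleukin-27, a cytokine of myeloid cells, had 0.502 and 0.813 FPKM in Tet2 KO against 0.0704 and 0.125 FPKM in WT. Both lay under a mean FPKM of 1, as Osm did. The other low ones were Ctf2, with 0.257 and 0.228 FPKM, and Il31, listed at 0 in both groups. Cntf and Ctf1, 2 further ligand genes, had 3.12 and 2.65 FPKM in Tet2 KO and 2.36 and 3.32 FPKM in WT. Socs1, an inhibitor gene with a larger difference than Socs3 (0.52 against 0.39), had 26.6 FPKM in Tet2 KO against 18.3 FPKM in WT, a ratio of 1.46. Gab1, an adaptor gene of the pathway, had the lowest difference of the relay genes, with 2.41 and 3.27 FPKM.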
